A study of Rattus norvegicus with 6 samples.

Results

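The endosome sorting and recycling machinery was followed through 40 genes chosen by name, of which 39 were measured, out of 14217 genes on the arrays. They are the Rab GTPases of early, recycling and late endosomes, the Rab11 effectors and the myosins they bind, the Ehd ATPases, the recycling cargo Tfrc with the GTPase Arf6, sorting nexins, the retromer core and the ESCRT complexes. Each gene was read from the probe set (a group of short probes for 1 transcript) with the highest mean over the 6 arrays, among probe sets annotated to that gene alone. Stam, a subunit of the first ESCRT complex, had no such probe set and was not analysed here.

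Hearts came from male rats of a pair of strains, with 3 arrays per strain and RNA pooled from 2 animals on each array, which makes 6 animals per strain. The control was the Dahl S rat, inbred for a rise of blood pressure on a salty diet. The other was S.LEW(10)x12x2x3x5, a congenic strain that carries Lewis rat DNA in part of chromosome 10 on the Dahl S background; the sources used here do not give the limits of that Lewis segment. All rats shared a birth date, were weaned at 30 days, ate a low-salt (0.3%) diet and were killed at 53 days of age. Whole hearts were extracted, so fewer cells of a type and less RNA per cell cannot be told apart. The values are log2 expression, and differences are congenic minus Dahl S.

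Endosomes sort what a cell has internalised. Rab5 and its tether Eea1 fuse incoming vesicles, Rab4, Rab11 and their partners return receptors and channels to the surface, sorting nexins and retromer pull cargo out of the degradative route, and ESCRT folds ubiquitinated cargo into internal vesicles on the way to the Rab7-marked late endosome. In heart muscle this traffic sets how many ion channels, glucose transporters and adrenergic receptors sit in the surface membrane. Rififylin, the ubiquitin ligase encoded by Rffl on chromosome 10, associates with recycling endosomes and has been the gene of interest in work on this strain. The comparison therefore asks whether the transcripts of the compartment where rififylin acts differ between the hearts.

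The arrays correlated at 0.993 to 0.998 (Pearson, across 31042 probe sets), with 0 identical pairs. The 11 measured cardiomyocyte markers, among them Myh6, Tnnt2 and Ryr2, had mean log2 levels of 14.29 to 14.31 on the Dahl S arrays and 14.27 to 14.29 on the congenic arrays. Hybridization controls, which are spiked transcripts, were brightest on Dahl S array 3 (11.31) and congenic array 2 (11.28), while the remaining 4 arrays had 10.41 to 10.59. For some members the difference is also given among those 4, the low-control arrays, and for the brighter 2, the high-control pair, which is 1 array against 1. Nothing in the labels ties same-numbered arrays to one cage.

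No member of the machinery differed between the strains at an adjusted p under 0.05. Limma with Benjamini-Hochberg adjustment over all 31042 probe sets called 0 of the 39 members, against 11 probe sets (0.0354%) in all and 5 of 14217 genes (0.0352%). The unadjusted p was under 0.05 for 2 members, the myosin genes Myo5a, higher, and Myo5b, lower, which is 5.13% of the members against 7.03% of all genes (3.47% higher and 3.55% lower). The median difference over the members was -0.0088, against -0.0068 over all genes, with 18 members on the positive and 21 on the negative side. All 39 differences lay between -0.18 and 0.24, and the adjusted p from 0.736 to 0.992.

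The differences were small in size as well. Their median absolute value was 0.04, against 0.06 over all genes and 0.05 over genes brighter than the median probe set, and 6 members (15.4%) exceeded 0.1 against 26.4% of all genes. For 32 of the 39 members the whole 95% interval of the strain difference lay within 1.2-fold in either direction. So it did for 9205 of all 14217 genes and for 7038 of the 9462 genes brighter than the median probe set. The exceptions among the members were Myo5a, Myo5b, Vps25, Ehd3, Arf6, Rab14 and Vps26a, and no member's interval reached below -0.40 or above 0.43. These intervals describe 3 pools against 3 pools, and their limits are those of so few arrays.

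**Figure D1:**
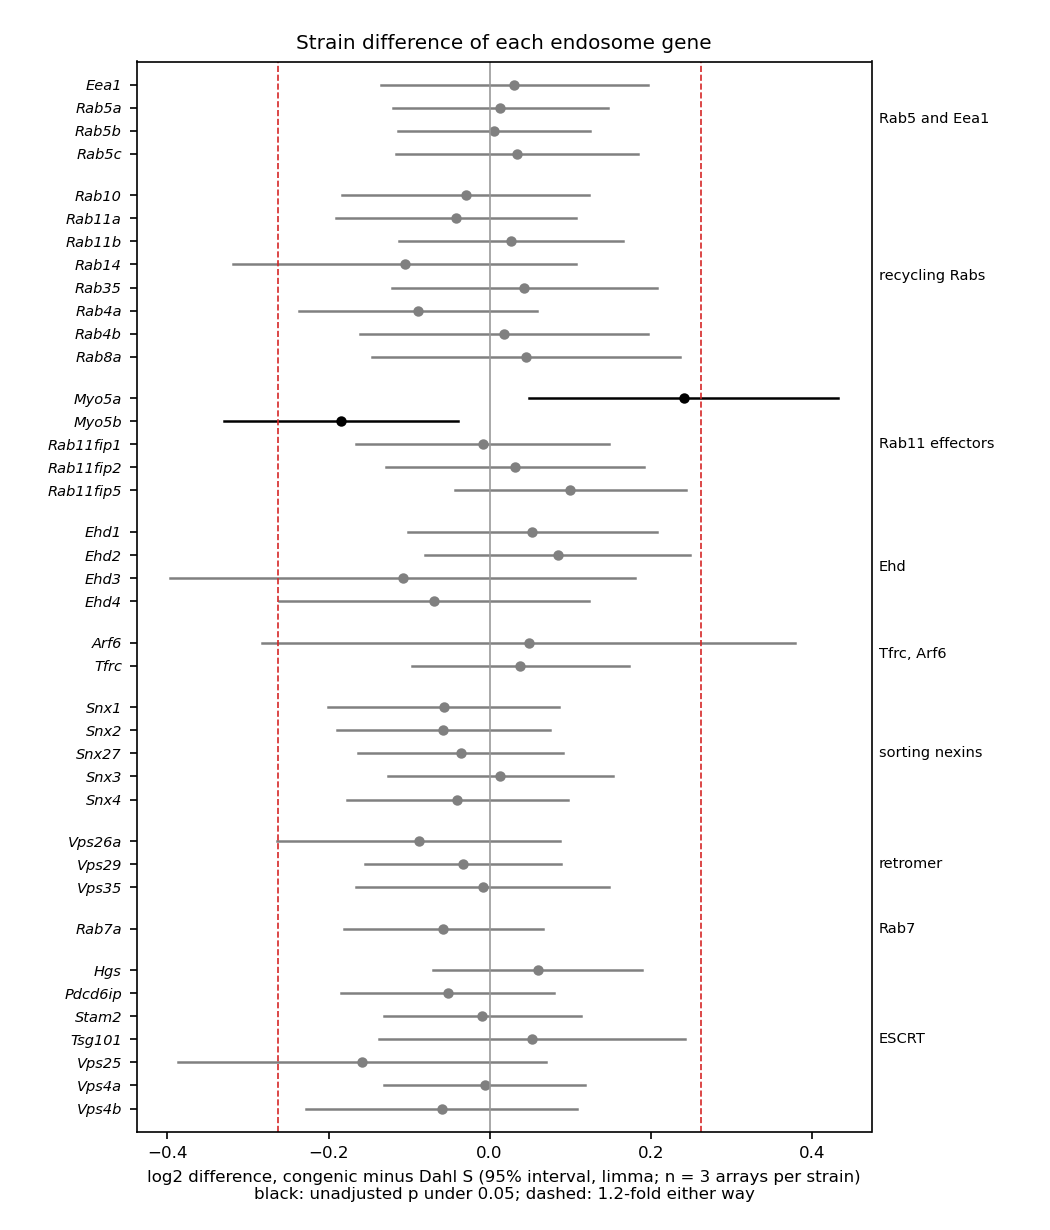
Log2 difference between congenic and Dahl S hearts for each of the 39 measured genes (points, with 95% limma intervals; 3 arrays per strain), grouped by role. All intervals but those of Myo5a and Myo5b (black) include 0, and 32 lie between the dashed lines at 1.2-fold.

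**Figure D2:**
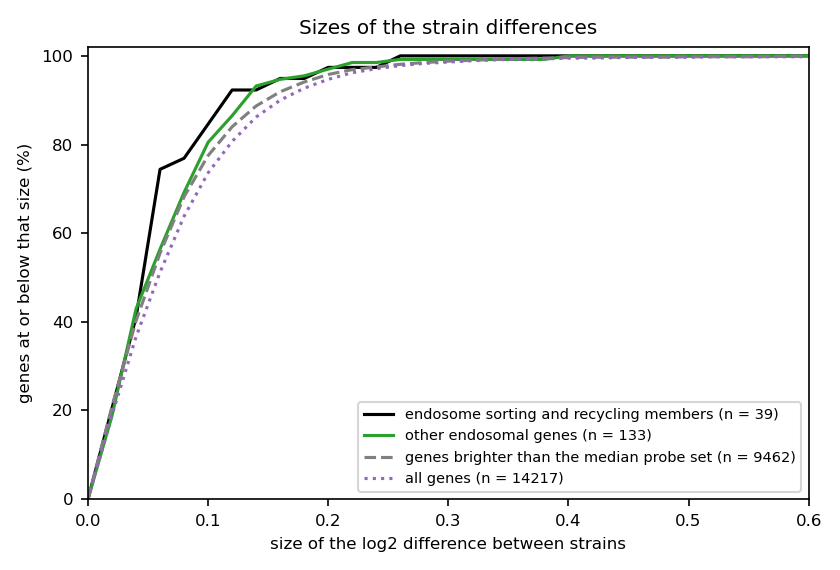
Cumulative share of genes (vertical axis, percent) whose strain difference is at or below a given size (horizontal axis, log2), for the 39 members, 133 other endosomal genes, genes brighter than the median probe set and all 14217 genes. The members' curve lies at or to the left of that of all genes over most of the range, with a median size of 0.04 against 0.06.

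The early endosome group held the 3 Rab5 genes and Eea1, and none of the 4 passed. Rab5b, a GTPase of early endosome fusion, was the steadiest member. It read 10.02, 10.02 and 10.05 in Dahl S and 10.05, 10.01 and 10.05 in the congenic heart, a difference of 0.005 (95% interval -0.11 to 0.12) with the lowest within-strain SD of the members, 0.02. The other Rab5 genes, Rab5a and Rab5c, differed by 0.01 and 0.03, and Eea1, which tethers vesicles through Rab5, by 0.03. In each of these 4 genes the arrays of the strains overlapped.

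Among the 8 recycling Rabs 4 differences were positive and 4 negative, and none passed. Rab4a, the GTPase of fast recycling from early endosomes, read 8.96, 9.03 and 9.11 in Dahl S and 8.91, 8.92 and 9.00 in the congenic heart (difference -0.09, SE 0.06, limma adjusted p = 0.833). Its groups overlapped only through Dahl S array 1 and congenic array 3. Rab4b, its close relative, differed by 0.02. Rab11a and Rab11b, the GTPases of the recycling compartment, had 2 probe sets each, and 3 of these 4 overlapped between strains. Rab11a differed by -0.04 on the brighter probe set and -0.03 on the other, and Rab11b by 0.03 and 0.04. The dimmer Rab11b probe set read 9.71, 9.72 and 9.71 in Dahl S and 9.77, 9.73 and 9.77 in the congenic heart, without overlap (unadjusted p = 0.439). Rab8a and Rab10, which carry vesicles to the surface, differed by 0.04 and -0.03, and Rab35, a GTPase of fast recycling, by 0.04.

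Rab14, which works between early endosomes and the trans-Golgi network, had the widest spread of this group. It read 11.02, 10.75 and 10.71 in Dahl S and 10.77, 10.76 and 10.63 in the congenic heart (difference -0.11, SE 0.09, limma adjusted p = 0.861). Only Dahl S array 1 lay above the rest, and without it the difference was -0.0096. Among the low-control arrays the difference was -0.18, and in the high-control pair 0.05.

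The Rab11 effectors and their motors held both members with an unadjusted p under 0.05. Myo5a, an actin motor known for carrying melanosomes and other organelles, read 5.82, 5.51 and 5.70 in Dahl S and 5.89, 5.96 and 5.90 in the congenic heart. All 3 congenic values exceeded all 3 Dahl S values, as in 5.89% of all genes. The difference was 0.24 (SE 0.08, 1.18-fold, unadjusted p = 0.0201, limma adjusted p = 0.736). Myo5b, the class V myosin that binds Rab11 and moves recycling endosomes, read 5.49, 5.48 and 5.59 in Dahl S and 5.25, 5.37 and 5.37 in the congenic heart. Here the 3 congenic values were the lowest, as in 8.75% of all genes. The difference was -0.18 (SE 0.06, 1.14-fold, unadjusted p = 0.0194, limma adjusted p = 0.736). These 2 were the only members whose strains did not overlap, 5.13% against 14.6% of all genes.

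Both probe sets were dim, under 6.55, the mean level of the median probe set. Myo5a differed by 0.23 among the low-control arrays and 0.26 in the high-control pair, and Myo5b by -0.17 and -0.22. With 1 array left out the unadjusted p rose to at most 0.0627 for Myo5a, whose difference fell to 0.16 without Dahl S array 2, and to at most 0.0747 for Myo5b. Marker lists of other cell types also differed in level between the arrays, some on the side of Myo5a and some on that of Myo5b. Of 14 macrophage and myeloid markers, the unadjusted p was under 0.05 for 6 on the higher and 0 on the lower side, with mean log2 levels of 7.76 to 7.98 in Dahl S and 7.98 to 8.09 in the congenic heart, and of 5 nerve and Schwann cell markers 3 were so on the higher side (6.73 to 6.92 against 6.82 to 7.16). Of these lists 4 of 14 and 3 of 5 markers were dim, the lowest mean levels being 5.18 and 6.18. The dim ones included Fcgr3a, Adgre1, Th and Dbh, which were among those with an unadjusted p under 0.05. Positive differences also prevailed among the markers of fibroblasts (12 of 12), mural cells (8 of 9), endothelium (8 of 10), mesothelium (7 of 7) and blood (6 of 6). Over all 14217 genes 6640 differences were positive, and 3.47% had a limma unadjusted p under 0.05 on the higher side. Lymphocyte markers lay on the negative side in 8 of 9 (median -0.26), with 7.87 on Dahl S array 3 and 6.23 to 7.02 on the rest, and adipocyte markers in 5 of 6 (median -0.14, levels 7.45 to 8.52 in Dahl S and 7.67 to 8.34 in the congenic heart). In both lists only the dim adipocyte marker Lep had an unadjusted p under 0.05, and it was higher (0.24, limma unadjusted p = 0.043). Cardiomyocyte markers were negative in 9 of 11 (median -0.02). The part of these cells in the differences of Myo5a and Myo5b was not tested.

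The 250 bases before the annotated start of Myo5a are shown because it had the largest difference of the members (chr8:84692699-84692948, plus strand, RefSeq, GRCr8). Capitals mark GGGCGG or its reverse complement, the GC box of promoters without a TATA element, with 7 matches of which a neighbouring pair shares a base.
Myo5a: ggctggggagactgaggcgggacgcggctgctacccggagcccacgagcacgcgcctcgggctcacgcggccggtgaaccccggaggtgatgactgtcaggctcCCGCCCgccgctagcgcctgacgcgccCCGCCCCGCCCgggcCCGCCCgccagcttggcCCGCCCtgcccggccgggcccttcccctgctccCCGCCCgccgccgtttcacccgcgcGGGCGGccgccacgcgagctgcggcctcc

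GC boxes were common in the group as a whole. RefSeq gave a promoter window, 250 bases before to 50 after the start, for 37 of the 40 genes. GGGCGG, on either strand, stood in 31 of 37 windows (83.8%) against 57.5% of 11734 windows of measured genes, and TATAAA in 2 (5.41%) against 8.45%. The median GC content was 64.3% against 60.0%. These windows were compared without a test.

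None of the 3 Rab11 adaptors passed. Rab11fip5, a Rab11-binding adaptor on recycling vesicles, read 9.77, 9.75 and 9.87 in Dahl S and 9.87, 9.86 and 9.96 in the congenic heart (difference 0.10, SE 0.06, limma adjusted p = 0.814). Dahl S array 3 reached the level of the congenic arrays, and in the high-control pair the difference was -0.01. Rab11fip2, which links Rab11 to Myo5b, differed by 0.03. Both Rab11fip1 probe sets were dim. The brighter differed by -0.0088, while the other, 4.65, 4.60 and 4.33 in Dahl S and 4.80, 4.73 and 4.69 in the congenic heart, differed by 0.21 (unadjusted p = 0.0488).

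The 4 Ehd genes encode ATPases that shape and cut recycling tubules, and none passed. Ehd2, the family member found at caveolae, read 9.78, 10.01 and 9.86 in Dahl S and 9.95, 9.99 and 9.96 in the congenic heart (difference 0.08, SE 0.07, limma adjusted p = 0.854). The Dahl S arrays spanned the congenic ones. Ehd1 differed by 0.05, Ehd4 by -0.07 and Ehd3, which supports channel trafficking in heart muscle, by -0.11 with the interval -0.40 to 0.18. Ehd4 read 11.88 on Dahl S array 1 and 11.59 to 11.66 on the others, and without that array it differed by 0.02. The other Ehd4 probe sets differed by 0.03 and 0.04. Ehd3 was dim, between 5.09 and 5.55 on the 6 arrays.

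Tfrc, the transferrin receptor and the classical recycling cargo, read 11.91, 12.02 and 12.04 in Dahl S and 12.01, 12.05 and 12.03 in the congenic heart, a difference of 0.04 (95% interval -0.10 to 0.17). Its other probe set differed by 0.03. Without Dahl S array 1 the Tfrc difference was -0.0005. Tfrc is also a gene of red cell precursors. Of the 6 measured erythroid and blood markers 3 had a limma unadjusted p under 0.05, all on the higher side, against 3.47% of all genes on that side. The marker list had mean log2 levels of 8.69 to 9.15 in Dahl S and 9.18 to 9.25 in the congenic heart. The part of blood cells in the Tfrc values was not tested. Arf6, a GTPase of recycling from the plasma membrane, varied most within strains, with an SD of 0.23. It read 9.05, 9.36 and 9.63 in Dahl S and 9.33, 9.29 and 9.56 in the congenic heart, so that the Dahl S arrays spanned all congenic ones. Its difference of 0.05 was 0.24 among the low-control arrays and -0.33 in the high-control pair.

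Of the 5 sorting nexins 4 had negative differences, beside 5750 of 9462 genes brighter than the median probe set, and none of the 5 passed. Snx2 and Snx1, which bend the membrane of retromer tubules, had the smallest p-values of the group. Snx2 read 9.30, 9.41 and 9.38 in Dahl S and 9.33, 9.32 and 9.27 in the congenic heart (difference -0.06, SE 0.06, limma adjusted p = 0.879). Snx1 read 8.92, 8.92 and 9.06 in Dahl S and 8.91, 8.88 and 8.94 in the congenic heart (difference -0.06, SE 0.06, limma adjusted p = 0.886), and among the low-control arrays it differed by 0.0041. In both genes the strains overlapped. Snx3, a partner of retromer, differed by 0.01, Snx4, of the recycling route, by -0.04, and Snx27, which returns cargo with PDZ-binding tails to the surface, by -0.04. The other Snx27 probe sets differed by -0.06, 0.14 and 0.09. The last of these read 6.77, 6.78 and 6.60 in Dahl S and 6.81, 6.80 and 6.81 in the congenic heart, without overlap (limma unadjusted p = 0.202).

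The retromer core, Vps26a, Vps29 and Vps35, sorts cargo away from lysosomes. All 3 differences were negative, beside 5750 of 9462 genes brighter than the median probe set, and none of the 3 passed. Vps26a read 8.94, 9.09 and 9.21 in Dahl S and 9.01, 8.97 and 9.00 in the congenic heart (difference -0.09, SE 0.08, limma adjusted p = 0.859). Dahl S array 1 lay below the congenic arrays and the other 2 Dahl S arrays above them. Without Dahl S array 1 the difference was -0.16 with an unadjusted p of 0.0445, and in that fit 9.59% of all genes had an unadjusted p under 0.05. In the high-control pair it was -0.24 and among the low-control arrays -0.01. Its other probe set, 8.79, 8.73 and 8.79 against 8.62, 8.60 and 8.72, differed by -0.12 (unadjusted p = 0.0803), with every congenic array below every Dahl S array. Vps29 differed by -0.03 (95% interval -0.16 to 0.09) and Vps35, the scaffold of the complex, by -0.0088 (95% interval -0.17 to 0.15). Rab7a, which recruits retromer to late endosomes, read 10.94, 10.97 and 11.00 in Dahl S and 10.89, 10.95 and 10.89 in the congenic heart (difference -0.06, SE 0.05, limma adjusted p = 0.871). The strains overlapped through congenic array 2 alone. The other Rab7a probe set differed by 0.01.

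Vps26a shared a stretch of promoter with 1 other member, the ESCRT-associated Pdcd6ip. CACGTG, the E-box at the heart of the CLEAR element known from promoters of lysosomal genes, occurred in 4 of 37 member windows (10.8%, Vps26a, Pdcd6ip, Rab5a and Snx2) against 8.91% of windows of measured genes. Read with the flanking bases on each side, Vps26a and Pdcd6ip had the same palindrome, GTCACGTGAC, which stood in these 2 member windows (5.41%) and in 56 of 11734 windows of measured genes (0.477%). The palindrome was picked after the windows had been searched, so these shares are a description only. The 250 bases before both starts are shown because the element was the sequence feature these members shared, with the palindrome in capitals. It begins 11 bases before the annotated start of Vps26a (chr20:30976890-30977139, minus strand, RefSeq, GRCr8) and 60 bases before that of Pdcd6ip (chr8:122524994-122525243, minus strand).
Vps26a: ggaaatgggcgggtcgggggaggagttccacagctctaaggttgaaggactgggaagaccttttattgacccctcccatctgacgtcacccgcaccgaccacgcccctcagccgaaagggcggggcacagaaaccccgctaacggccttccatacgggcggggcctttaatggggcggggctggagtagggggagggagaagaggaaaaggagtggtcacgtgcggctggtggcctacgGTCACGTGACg
Pdcd6ip: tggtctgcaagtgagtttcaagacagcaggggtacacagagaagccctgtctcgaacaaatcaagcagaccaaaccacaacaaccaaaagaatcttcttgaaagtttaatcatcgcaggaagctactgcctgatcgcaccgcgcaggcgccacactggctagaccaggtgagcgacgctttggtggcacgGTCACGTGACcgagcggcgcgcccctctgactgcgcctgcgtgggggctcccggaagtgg
The strain differences of these genes were -0.09 and -0.05 on the brightest probe sets. Of the other Pdcd6ip probe sets, 1 differed by -0.04 and 1 by 0.11 (unadjusted p = 0.0743), the latter reading 8.71, 8.64 and 8.67 in Dahl S and 8.78, 8.80 and 8.77 in the congenic heart, without overlap.

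Among the ESCRT genes 7 of 8 were measured and none passed. Hgs, the ubiquitin-binding subunit of the first complex, read 9.29, 9.29 and 9.33 in Dahl S and 9.42, 9.32 and 9.34 in the congenic heart (difference 0.06, SE 0.06, limma adjusted p = 0.873). Dahl S array 3 fell among the congenic arrays. Its partner Stam2 differed by -0.009 and was dim. Tsg101, of the next complex, differed by 0.05, its lowest value, 9.29, being that of Dahl S array 1 and the rest lying at 9.47 to 9.60. Vps25, of the complex after that, read 3.79, 4.02 and 3.79 in Dahl S and 3.53, 3.79 and 3.81 in the congenic heart (difference -0.16, SE 0.10, limma adjusted p = 0.814). This was the dimmest member probe set, and its difference rests on Dahl S array 2 and congenic array 1: with 1 array left out it ran from -0.21 to -0.07. The ATPases that take ESCRT apart, Vps4a and Vps4b, differed by -0.006 and -0.06, and Pdcd6ip, an adaptor also called Alix, by -0.05. The other Vps4a probe set differed by 0.09.

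**Figure D3:**
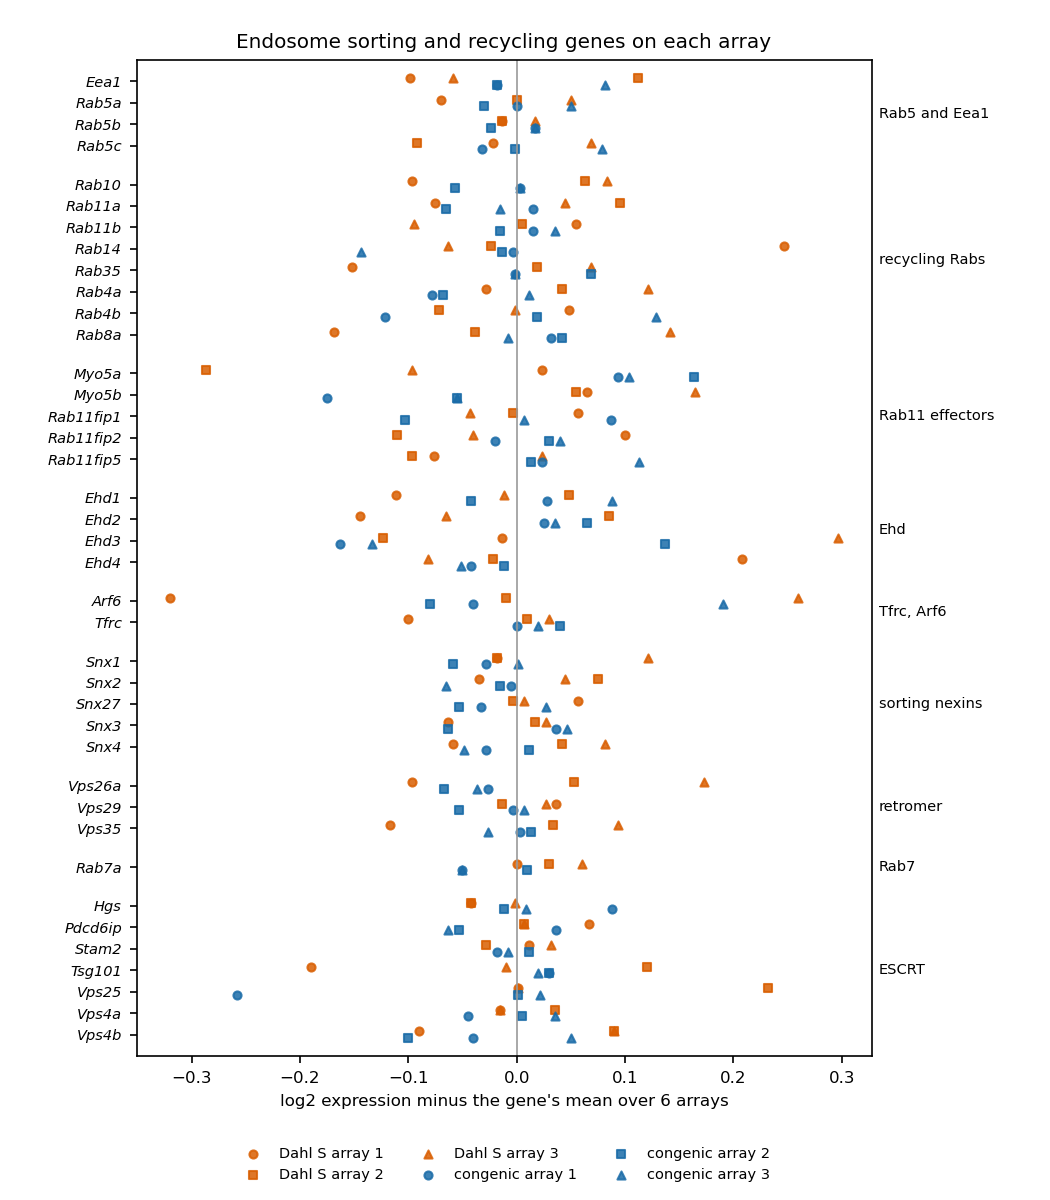
Log2 expression of each of the 39 genes on each array, relative to the gene's mean over 6 arrays (horizontal axis), for Dahl S (orange) and congenic (blue) hearts, grouped by role. The colours separate only for Myo5a and Myo5b, and Dahl S array 1 (orange circles) is the lowest array for 16 genes.

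The members also differed between pools of one strain. Dahl S array 1 was the lowest of the 6 arrays for 16 of 39 members (41.0%), against 23.5% of all genes and 28.2% of genes brighter than the median probe set. Dahl S array 3 was the highest for 12 (30.8%), against 26.5% of all genes and 32.1% of the brighter genes. The median deviation of the members from their own means was -0.03 on Dahl S array 1 and 0.03 on Dahl S array 3, and between -0.01 and 0.01 on the 3 congenic arrays. Genes brighter than the median probe set had medians of -0.02 and 0.03 on the same 2 Dahl S arrays. The difference had opposite signs among the low-control arrays and in the high-control pair for 17 of 39 members (43.6%), against 44.2% of all genes. Arf6, Rab14, Ehd4 (-0.14 and 0.08), Rab8a (0.12 and -0.10) and Rab5c (0.08 and -0.06) were among them, and Vps25 went from -0.24 to -0.0022. The within-strain SD of the members had a median of 0.07, against 0.08 over all genes and 0.07 over genes brighter than the median probe set. The 3' minus 5' gap of the beta-actin control, a sign of RNA integrity, was 1.00 on Dahl S array 1 and 1.00 to 1.07 on the other arrays. That control's 3' probe set read 13.17 on Dahl S array 1 against 13.31 to 13.52 on the others. The GAPDH control went the other way, its 3' probe set reading 14.36 on Dahl S array 1 against 14.27 to 14.33 on the others. Its gap was 0.52 on that array and 0.49 to 0.54 on the others.

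Different probe sets of a gene did not always follow the same arrays. Of the 16 members with more than 1 probe set, 8 had strain differences of both signs, and of all 65 member probe sets limma called 0, with 3 at an unadjusted p under 0.05. Rab14 and Rab5b had the most probe sets, 5 each. On Dahl S array 1, relative to the mean of the other Dahl S arrays, the brightest Rab14 probe set was higher by 0.29 and another by 0.35, while 2 others were lower, at -0.46 and -0.56. The dimmer Eea1 probe set stood at 7.11 on Dahl S array 1, 7.07 on congenic array 3 and 6.14 to 6.25 elsewhere, a step that its brighter probe set did not show. A dimmer Snx27 probe set was likewise highest on these arrays, at 7.93 and 7.98 against 7.44 to 7.75. These genes were singled out after their values had been seen, and which part of each transcript a probe set reads was not analysed here.

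**Figure D4:**
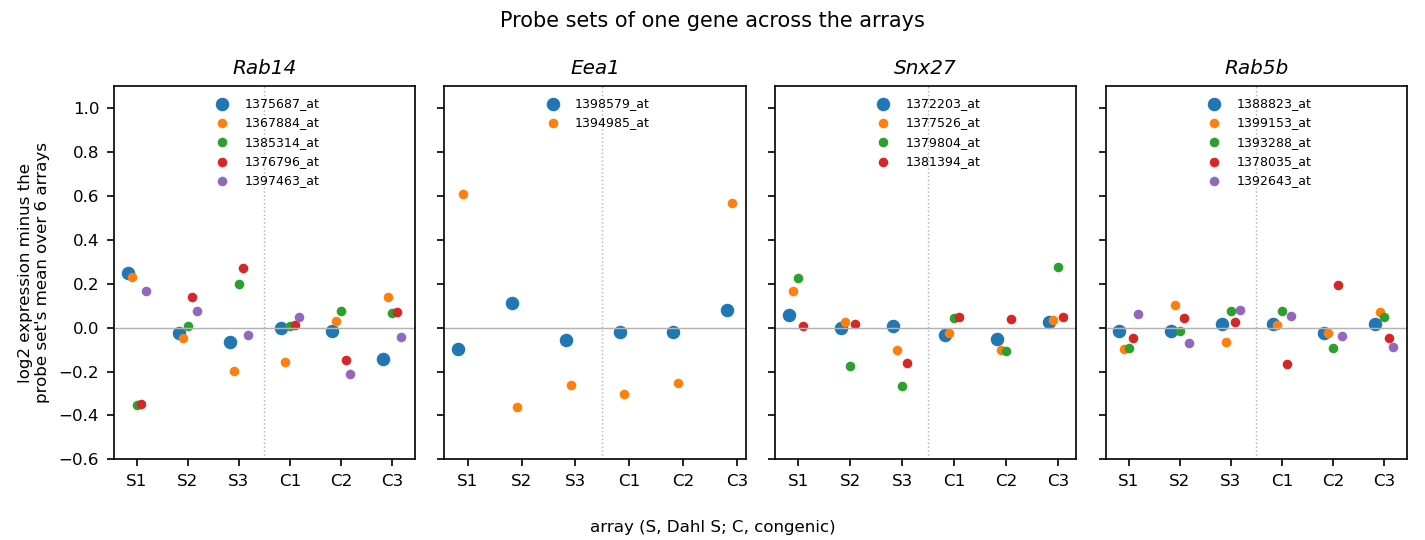
Probe sets of Rab14, Eea1, Snx27 and Rab5b on each array, as log2 expression relative to the probe set's own mean over 6 arrays (vertical axis; large blue points, the brightest probe set; S, Dahl S; C, congenic). On array S1 the Rab14 probe sets part in both directions, and 1 Eea1 probe set is high on S1 and C3 only, while the brightest Rab5b probe set stays between 10.01 and 10.05 on all arrays.

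The members lie on many chromosomes, and 3 of them, Rab5c, Vps25 and Hgs, on chromosome 10. They stand 224, 244 and 490 measured genes past Rffl in the order of the GRCr8 annotation, and none could be placed inside or outside the Lewis segment. Their differences were 0.03, -0.16 and 0.06. Rffl itself was dim and read 6.03, 5.91 and 6.06 in Dahl S and 6.13, 6.17 and 6.03 in the congenic heart (difference 0.11, SE 0.07, limma adjusted p = 0.809). Its sister ligase Rnf34 read 7.90, 7.97 and 7.97 against 7.88, 7.81 and 7.97 (difference -0.06, adjusted p = 0.881 in limma).

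No call fell among further genes of the endosomal system either. Of 143 further genes listed by function, 133 were measured, and limma called 0, while 8 (6.02%, 5 higher and 3 lower, beside 7.03% of all genes) had an unadjusted p under 0.05. Their median difference was -0.03, with 44 positive and 89 negative, where the genes brighter than the median probe set had a median of -0.02 with 3712 positive and 5750 negative. By list, 0 of 27 other Rabs and Rab regulators, 0 of 11 further Rab11 effectors and exocyst subunits and 0 of 6 Ehd partners had an unadjusted p under 0.05. Among 32 other sorting nexins and retromer or WASH genes it was 1 higher and 1 lower, among 27 other ESCRT genes 2 lower, and among 19 genes of vesicle tethering and phosphoinositide turnover 1 higher. The other 3, all higher, were among 9 measured genes of surface cargo, whose median difference was -0.02. The remaining 6 cargo genes were on the negative side, from Igf1r at -0.12 to Kcnh2 at -0.0005, with Insr, Slc2a4, Cacna1c and Kcnq1 between -0.04 and -0.02.

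The cargo genes were Kcna5, Lrp1 and Adrb1, and the strains did not overlap in any of them. The strains did not overlap in 22 of the 133 other endosomal genes (16.5%), against 14.6% of all genes. Naming genes by a small p-value favours genes whose groups do not overlap. Kcna5, the potassium channel of the ultrarapid atrial current, which is recycled through Rab11 endosomes, read 6.77, 6.54 and 6.85 in Dahl S and 7.07, 7.18 and 7.08 in the congenic heart (difference 0.39, SE 0.09, 1.31-fold, unadjusted p = 0.00247, limma adjusted p = 0.721). Lrp1, an endocytic receptor, differed by 0.18 (SE 0.06, unadjusted p = 0.0157), but by 0.05 when the median over its probe sets was taken. Adrb1, the main beta-adrenergic receptor of heart muscle, differed by 0.13 and was dim (unadjusted p = 0.0413). Lrp1 is also known from macrophages, fibroblasts and vessel walls. Fibroblast markers had mean log2 levels of 11.37 to 11.55 in Dahl S and 11.50 to 11.68 in the congenic heart. The limma unadjusted p was under 0.05 for 3 of 12, each of them higher, against 3.47% of all genes on that side. The part of these cell types in the Lrp1 difference was not tested.

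The others in this range belonged to the sorting machinery. Vps18, a core subunit of the tethers that fuse late endosomes, read 7.26, 7.36 and 7.38 in Dahl S and 7.45, 7.59 and 7.54 in the congenic heart (difference 0.19, SE 0.06, limma adjusted p = 0.736). Every congenic array lay above the Dahl S arrays, as in 5.89% of all genes, and the median over its probe sets differed by 0.05. Ubap1, a subunit of the Tsg101 complex, read 8.68, 8.53 and 8.62 against 8.39, 8.41 and 8.51 (difference -0.17, SE 0.06, limma adjusted p = 0.736), and Vps37a, of the same complex, differed by -0.13 (unadjusted p = 0.0404). In both genes every congenic array lay below every Dahl S array, as in 8.75% of all genes, while Tsg101 overlapped between the strains. The dim Snx13 and Snx10 differed by 0.26 and -0.20 (unadjusted p = 0.0333 each), and Snx10 by -0.10 among the low-control arrays and -0.41 in the high-control pair. The Snx10 difference was -0.10 as the median over its probe sets and -0.0007 without probe sets that may match several transcripts.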

How the data were processed

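Cardiac RNA of 3 Dahl S and 3 congenic pools was measured on Affymetrix rat arrays. The authors deposited log2 expression for each probe set, made with RMA (background correction, normalization between arrays), per the submitters' processing notes; its version and probe annotation are not in the sources used here. RMA values carry no detection call, so dim probe sets are named as such. No normalization was added. Of 31099 probe sets, 57 controls were set aside. By the platform annotation, its symbols brought up to date from RefSeq (GRCr8), 20826 of 31042 probe sets had exactly 1 gene, 436 several and 9780 none.

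The strain test was lmFit with eBayes from limma 3.58.1 (R 4.3.3), strain being the only term, Benjamini-Hochberg adjusted over all probe sets; a call is an adjusted p under 0.05. The test was checked on simulated arrays whose planted differences were larger than that of any member, so differences of the members' size were not covered. Plots used matplotlib 3.10.9. The members and lists were chosen with earlier results of these data known. Members among the 12 with the smallest unadjusted p are given on every array, as are Rffl and Rnf34. Of the other endosomal genes, the rule named the 6 with the smallest unadjusted p. The cargo genes on the negative side were named outside that rule. Arf6, Tfrc, Rab5b, Vps37a and Adrb1 were added after their values had been seen. So were the further probe sets of Rab14, Eea1, Snx27, Rab11fip1, Rab11a, Rab11b, Tfrc, Pdcd6ip, Vps26a, Vps4a, Rab7a and Ehd4. P-values set the strain difference against the spread between pools, moderated across probe sets, and not against the spread between single animals.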

Additional observations from a re-analysis of the deposited data

How the results depend on the processing

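The count of 0 members called held in all 15 alternative settings. The median over all probe sets of a gene, in place of the brightest, moved the members' median difference to 0.023. The count of members with an unadjusted p under 0.05, 2, ran from 1 to 3 with 1 array left out (3 without Dahl S array 1, which added Vps26a; 1 without Dahl S array 2 or 3 or congenic array 1 or 2), was 1 with an intensity trend in the variance (Myo5a), and was 0 among the 4 low-control arrays and 0 among 33 members on probe sets brighter than the median, a filter that removes both myosins. For the other endosomal genes the count of 8 ran from 2, without congenic array 2, to 12, without Dahl S array 1, and was 4 or 5 without any other array, and was 3 among the low-control arrays. The 11 calls over all probe sets became 5 with the replicate number as a block, 5 with the hybridization controls' level as a block, 2 among the low-control arrays and 5 to 6 whichever array was left out. The replicate block, whose numbers share no known origin (deviations of same-numbered arrays correlated at -0.183 to -0.058), changed no member's call.

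Signs turned for 24 of 47 named genes in 43 of 696 values, none past the threshold and none for a gene whose difference exceeded 0.11 in size. With quantile normalization Vps35 was 0.0142 and Vps4a 0.0231. With the median over probe sets Rab14 was 0.0764, Ehd4 0.0315, Snx27 0.0399, Rab11fip1 0.1024 and Vps4a 0.0401. Among the low-control arrays Snx1 was 0.0041, Vps4b 0.0055, Rab10 0.0225, Rab11fip1 0.0209 and Vps35 0.0286. The cause was not tested. With 1 array left out the differences that crossed 0 ran, for 20 genes, over these ranges: Arf6 -0.0976 to 0.1884, Eea1 -0.0101 to 0.0926, Ehd3 -0.2042 to 0.0131, Ehd4 -0.1294 to 0.02, Rab10 -0.0858 to 0.0018, Rab11b -0.0131 to 0.0598, Rab11fip1 -0.0544 to 0.0427, Rab11fip2 -0.017 to 0.0906, Rab35 -0.0217 to 0.0862, Rab4b -0.0433 to 0.0827, Rab5a -0.0162 to 0.0398, Rab5b -0.0023 to 0.0178, Rab5c -0.0041 to 0.0743, Rab8a -0.0297 to 0.1255, Snx3 -0.0168 to 0.0482, Stam2 -0.0278 to 0.0064, Tfrc -0.0005 to 0.0626, Tsg101 -0.0283 to 0.1262, Vps35 -0.0685 to 0.0364, Vps4a -0.0224 to 0.0153.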
